A study of Homo sapiens with 36 samples.

Results

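The genes described here are 44 interferon-stimulated genes (ISGs), a named list that covers the interferon signalling regulators, nucleic acid sensors and antiviral effectors. They were looked up by gene symbol among the 35460 genes that the deposited transcripts could be summed to, and all 44 were present. Bulk RNA came from established human lines of acute myeloid leukaemia, MOLM-13 and MONO-MAC-6, both wild-type per the labels and grown in RPMI medium with 10% FBS. Cells were held for 72 h in DMSO, the vehicle, or in A9, a PROTAC, which is a compound that brings target proteins to the cell's degradation machinery. A9 was given at 0.125 µM to MOLM-13 and at 0.25 µM to MONO-MAC-6, so line and dose differ together, and DMSO is the control in both. The targets are named as IKK2 and NR4A1 in the design text of the series and as IKK1 and NR4A1 in its title. The 36 libraries formed 4 groups of 9, and the libraries that share a first label number were averaged into 1 sample, which gave 3 samples per group and 12 in all. Nothing in the labels says that these samples came from separate cultures, so p-values measure the spread between them, which may be technical.

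ISGs are switched on when type I or type III interferon binds its receptor and activates the kinases JAK1 and TYK2. STAT2, which they phosphorylate, and IRF9 are part of the complex ISGF3, which binds a DNA element called the ISRE, while interferon-gamma acts through the GAS element. Many ISG products block virus entry, translation or replication, and many monocytic cells keep a low level of this programme without infection.

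The promoters of the 7 genes that passed the test in MONO-MAC-6 show which of them carry the ISRE core at the RefSeq start site. Each stretch is 200 bases of GRCh38.p14, from 180 bases before the start site to 20 after it, written on the gene's strand, with every match to the ISRE core (GAAANNGAAA, or TTTCNNTTTC on the other strand) in capitals. IFI27, IFI6, IFITM3, OAS3 and IFI44L have matches, and IFI35 and IFI16 have none in these stretches. They lie at chr14:94110556-94110755 on the plus strand for IFI27, chr1:27672173-27672372 on the minus strand for IFI6, chr11:320841-321040 on the minus strand for IFITM3, chr12:112938294-112938493 on the plus strand for OAS3, chr1:78620268-78620467 on the plus strand for IFI44L, chr17:43006604-43006803 on the plus strand for IFI35 and chr1:159008811-159009010 on the plus strand for IFI16.
IFI27: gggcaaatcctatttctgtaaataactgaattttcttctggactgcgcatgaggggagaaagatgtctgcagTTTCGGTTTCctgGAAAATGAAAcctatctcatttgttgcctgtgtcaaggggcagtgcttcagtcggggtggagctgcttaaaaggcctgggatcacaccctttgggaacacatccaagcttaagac
IFI6: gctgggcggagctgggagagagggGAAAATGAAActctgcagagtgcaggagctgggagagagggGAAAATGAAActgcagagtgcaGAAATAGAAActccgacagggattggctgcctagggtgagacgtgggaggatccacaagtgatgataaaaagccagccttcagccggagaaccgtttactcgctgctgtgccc
IFITM3: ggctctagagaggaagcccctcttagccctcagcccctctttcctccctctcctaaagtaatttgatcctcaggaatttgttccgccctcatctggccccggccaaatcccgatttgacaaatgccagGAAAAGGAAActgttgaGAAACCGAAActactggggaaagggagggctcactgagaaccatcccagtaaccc
OAS3: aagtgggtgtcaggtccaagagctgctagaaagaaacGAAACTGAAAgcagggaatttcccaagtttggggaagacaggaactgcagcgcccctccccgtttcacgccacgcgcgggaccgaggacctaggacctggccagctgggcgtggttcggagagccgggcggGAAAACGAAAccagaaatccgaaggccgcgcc
IFI44L: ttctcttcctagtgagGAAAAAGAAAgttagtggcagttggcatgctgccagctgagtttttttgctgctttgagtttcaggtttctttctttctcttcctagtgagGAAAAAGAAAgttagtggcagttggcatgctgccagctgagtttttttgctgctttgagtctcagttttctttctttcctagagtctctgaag
IFI35: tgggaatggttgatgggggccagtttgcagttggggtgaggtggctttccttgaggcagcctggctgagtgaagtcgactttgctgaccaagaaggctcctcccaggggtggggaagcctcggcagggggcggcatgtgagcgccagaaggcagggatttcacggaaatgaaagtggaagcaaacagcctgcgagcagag
IFI16: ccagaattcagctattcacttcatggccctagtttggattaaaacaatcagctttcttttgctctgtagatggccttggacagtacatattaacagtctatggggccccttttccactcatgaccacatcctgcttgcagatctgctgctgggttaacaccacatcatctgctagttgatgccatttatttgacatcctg

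IFI6 had the most matches of the 7 genes, 3, starting 156, 115 and 93 bases before the start site. The same letters, GAAAATGAAA, make up the first pair in IFI6 and occur once in IFI27, which has matches 108 and 95 bases before this start site. IFITM3 had its matches close to the start site, at 52 and 35 bases, and OAS3 had 1 far match at 143 bases and 1 near match at 12 bases. In IFI44L both matches, at 164 and 73 bases, had the letters GAAAAAGAAA.

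RefSeq windows of 300 bases (250 before and 50 after the start site) could be matched to 33 of the 44 genes, in 45 windows. The ISRE core was present in 27 of the 45 windows (60%) and in 23 of the 33 genes, against 3.57% of all 35116 windows. The GAS core (TTCNNNGAA, the same letters on both strands) was present in 11 of the 45 windows (24.4%), in 10 genes, against 7.66% of all windows, and its matches can overlap those of the ISRE core. Genes that did not pass any A9 test also had the ISRE core, among them IFIT1, IFIT3, IFITM1, BST2, ISG15 and IFIH1, so a match did not go with a call gene by gene. A match is a description of the letters only. OAS2, OASL, DHX58, IFIT2, IFITM2, LY6E, MX2, GBP2, IRF7, USP18 and TRIM22 were not matched to a window.

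**Figure D1:**
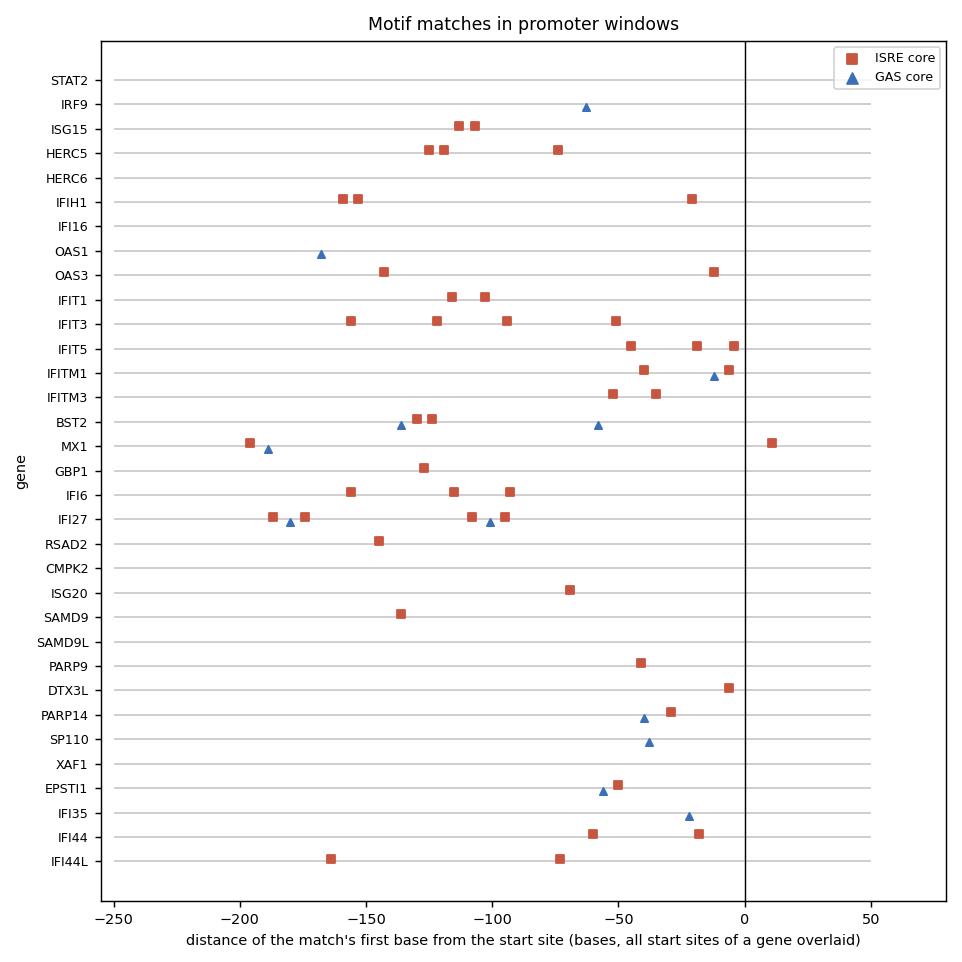
Matches to the ISRE core (squares) and the GAS core (triangles) in the promoter windows of the 33 matched genes, by the distance in bases of the match's first base from the start site, with all start sites of a gene overlaid. ISRE matches were found in 23 genes and GAS matches in 10, and IFI6 has 3 ISRE matches at 1 start site.

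The deposited values are TPM, a transcript abundance that is corrected for length and has the same total in each library, so levels can be compared between genes. TPM hold no counts, and the depth of each library is unknown. In MONO-MAC-6, DMSO sample 1 stood apart from the other DMSO samples. Over all genes tested it was the lowest of the 3 for 71.5% and the highest for 20.2%, and of 42 ISGs it was the lowest for 26 and the highest for 15. The 26 had a median transcript length of 2434 bases and the 15 had one of 855 bases. Of the 35.8 TPM of IFI16 in this sample, 23.8 came from ENST00000562225, a transcript of 1108 bases with a retained intron, against 6.66 and 1.72 TPM in DMSO samples 2 and 3. Results for MONO-MAC-6 are therefore given with and without this sample.

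In the untreated lines, ISGs were mostly higher in MONO-MAC-6 than in MOLM-13. The 44 genes summed to 339, 327 and 307 TPM in the MOLM-13 DMSO samples and to 806, 780 and 779 TPM in the MONO-MAC-6 DMSO samples. Of 41 genes tested, 24 were higher and 5 lower in MONO-MAC-6 at an adjusted p under 0.05, where adjusted p is the Benjamini-Hochberg value of limma over all genes tested. GBP1, IFIT5 and OAS3 stayed under the filter, a mean of 1 TPM in a group. Of all genes tested, 48.8% passed, 30.4% higher and 18.4% lower in MONO-MAC-6. Of the 41, 10 reached 1 TPM in 1 of the lines only and entered the test through it (DHX58, EPSTI1, IFI27, IFI44, IFI44L, IFIT1, IFIT2, IFIT3 and OASL in MONO-MAC-6, RSAD2 in MOLM-13), and all 10 passed. Of the other 31, 15 were higher and 4 lower, against 42% of all genes at or above the filter in both groups. The median log2 difference of the 41 was 0.96, against 0.12 for all genes. Under median-ratio scaling the 24 and 5 were the same counts, with medians of 0.86 and -0.08, while the share of all calls that were higher in MONO-MAC-6 went from 62.2% to 47.3%. The lines were deposited in separate tables, so line and table cannot be told apart. These DMSO samples are also the controls of the A9 comparisons. In bulk RNA, fewer cells of a kind and less RNA per cell cannot be told apart either.

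BST2 (tetherin, which holds budding virus at the membrane) was the most abundant ISG in both untreated lines, at 65.9, 71.2 and 72.3 TPM in MOLM-13 and 293, 221 and 219 TPM in MONO-MAC-6. IFITM3, a membrane protein that blocks virus fusion, was at 1.28, 1.94 and 1.08 TPM in MOLM-13 and 62.6, 53.1 and 55.4 TPM in MONO-MAC-6. Its log2 difference of 4.59 (SE 0.17, adjusted p = 7.74e-06) was the highest of the 41. The 3 members of its family share much of their sequence, so the split of reads between IFITM1, IFITM2 and IFITM3 is uncertain. IFI6, a mitochondrial and endoplasmic reticulum protein that limits cell death, was at 1.21, 1.70 and 1.83 TPM in MOLM-13 and 71.6, 50.4 and 50.3 TPM in MONO-MAC-6 (log2 difference 4.49, SE 0.19, adjusted p = 1.37e-05). MX1, a dynamin-like GTPase that traps viral ribonucleoproteins, was at 5.86, 5.10 and 5.77 TPM against 40.8, 73.3 and 78.0 TPM, a difference of 3.25. IFI44 and IFI27 followed, with differences of 2.96 and 2.47. None of these 5 genes overlapped between the lines, and all 5 passed in each fit that left out a sample. They were picked as the highest differences among ISGs past the test, so the lack of overlap is no further support. IFI44 and IFI27 entered the test through MONO-MAC-6 only.

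The 5 ISGs that were lower in MONO-MAC-6 were TRIM22, CMPK2, LY6E, RSAD2 and USP18. TRIM22, a ubiquitin ligase, was at 39.8, 32.8 and 25.0 TPM in MOLM-13 and 4.43, 10.2 and 9.49 TPM in MONO-MAC-6 (log2 difference -1.94, SE 0.32, adjusted p = 0.00339). CMPK2, a mitochondrial nucleotide kinase, was at 8.22, 7.26 and 6.77 TPM against 2.31, 4.36 and 2.93 TPM, a difference of -1.03. RSAD2 (viperin), which makes a chain-terminating nucleotide and is CMPK2's neighbour on chromosome 2, was at 1.60, 1.86 and 1.64 TPM against 0.41, 0.72 and 0.29 TPM, a difference of -0.88. The annotated spans of CMPK2 and RSAD2 overlap on opposite strands, and nothing used here states that reads were assigned by strand. LY6E, a membrane-anchored protein that affects virus entry, was at 27.6, 30.0 and 30.0 TPM against 14.7, 13.3 and 14.1 TPM, a difference of -1.01. USP18, which removes ISG15 and dampens the receptor, was at 5.39, 5.97 and 5.35 TPM against 3.23, 3.68 and 3.76 TPM (difference -0.53, adjusted p = 0.0136, and 0.0763 without MOLM-13 DMSO sample 2).

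By role, all 3 nucleic acid sensors (IFIH1, DHX58, IFI16) and all 3 tested GTPases (MX1, MX2, GBP2) were higher in MONO-MAC-6, against 30.4% of all genes tested. The 3 tested IFIT genes, which bind viral RNA (IFIT1, IFIT2, IFIT3), were higher too. They and DHX58 reached 1 TPM in MONO-MAC-6 only, so they entered the test through the line in which they were high. IFIT5 and GBP1 were under the filter. STAT2 and IRF9, both part of ISGF3, were higher with differences of 0.70 and 1.60, and IRF7, which amplifies interferon transcription, was at 0.27 (adjusted p = 0.427). Leaving out DMSO sample 1 of MONO-MAC-6 gave 35 calls, with DTX3L, HERC6, ISG15, PARP14, SAMD9L and SP110 added. Leaving out another sample gave 25 to 28 calls. OAS2 and STAT2 were lost in each of those 5 fits, up to an adjusted p of 0.115 and 0.109, and HERC5 was lost without MOLM-13 DMSO sample 2 (0.0557) and PARP9 without MONO-MAC-6 DMSO sample 2 (0.0534).

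**Figure D2:**
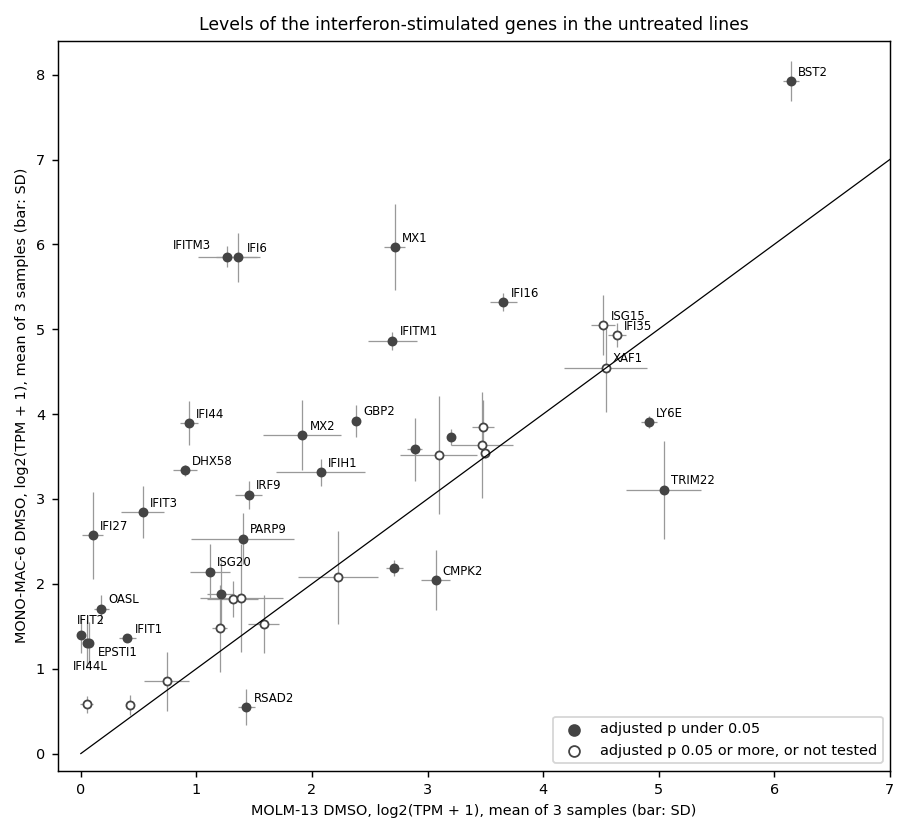
Mean level of each of the 44 genes in the DMSO samples of MOLM-13 (x axis) and MONO-MAC-6 (y axis), in log2(TPM + 1), with SD bars over 3 samples and filled points for an adjusted p under 0.05. Points above the diagonal are higher in MONO-MAC-6: IFITM3, IFI6, MX1 and IFI44 lie farthest above it, and TRIM22, CMPK2, LY6E and RSAD2 lie below it.

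In MOLM-13, no ISG passed the test after A9. The sum of the 44 genes was 339, 327 and 307 TPM in DMSO and 341, 364 and 325 TPM in A9. Limma called 0 of the 33 genes tested, and 0.121% of all genes passed. At an unadjusted p under 0.05 there were 9 of the 33, 6 higher and 3 lower, against 7.89% of all genes. The median log2 fold change of the 33 was -0.01, against -0.05 for all genes, with 15 values above 0 and 18 below. Under median-ratio scaling 19 were above 0, since USP18, MX2, TRIM22 and XAF1, all close to 0, turned sign. The genes under the filter were EPSTI1, GBP1, IFI27, IFI44, IFI44L, IFIT1, IFIT2, IFIT3, IFIT5, OAS3 and OASL.

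IFITM3 had the highest fold change in MOLM-13. It was at 1.28, 1.94 and 1.08 TPM in DMSO and at 5.11, 5.55 and 6.86 TPM in A9, a log2 fold change of 1.50 (SE 0.17, adjusted p = 0.0599). All A9 samples lay above all DMSO samples, as in 8.59% of all genes tested in this line. The gene passed under median-ratio scaling (adjusted p = 0.0394) and with the trend on transcript length removed (0.0131), and in none of the 6 fits that left out a sample (0.113 to 0.307). IFI16, a sensor of DNA in the nucleus and cytosol, had the lowest fold change, from 12, 12.4 and 10.5 TPM to 5.17, 5.69 and 6.91 TPM (log2 fold change -0.87, SE 0.14, adjusted p = 0.0917). OAS1, which makes the 2-5A signal that activates RNase L, went from 2.31, 1.75 and 1.95 TPM to 1.20, 1.18 and 0.95 TPM (-0.51, adjusted p = 0.265). In IFI16 and OAS1 every A9 sample was below every DMSO sample, as in 6.42% of all genes tested in this line. Both were picked for their low fold change, so the lack of overlap is no further support.

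LY6E, GBP2 and IFI6 were the other genes at the ends of the range in MOLM-13. LY6E was at 27.6, 30.0 and 30.0 TPM in DMSO and 23.8, 24.4 and 24.5 TPM in A9, a log2 fold change of -0.26. GBP2, a guanylate-binding GTPase, was at 4.09, 4.34 and 4.21 TPM and then 4.89, 6.02 and 6.35 TPM, a log2 fold change of 0.37. IFI6 was at 1.21, 1.70 and 1.83 TPM and then 1.80, 2.80 and 3.02 TPM, a log2 fold change of 0.45 with overlapping groups. In all, 6 of the 33 genes had every A9 sample above every DMSO sample (BST2, GBP2, HERC5, IFI35, IFITM2, IFITM3), against 8.59% of all genes, and 4 had every A9 sample below (IFI16, LY6E, OAS1, SP110), against 6.42%. The regulators STAT2, IRF9, IRF7 and USP18 lay between -0.01 and 0.12.

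In MONO-MAC-6, 6 ISGs rose and 1 fell after A9. IFI27, IFI6, OAS3, IFI44L, IFITM3 and IFI35 rose, and IFI16 fell. These were 7 of 42 genes tested (16.7%), against 3.36% of all genes, with 2.51% of all genes higher and 0.855% lower. OAS3, RSAD2 and IFIT2 reached 1 TPM in 1 of the groups only, and of the other 39 genes 5 rose and 1 fell, against 2.9% of all genes at or above the filter in both groups. GBP1 and IFIT5 were under the filter. The sum of the 44 genes was 806, 780 and 779 TPM in DMSO and 1313, 1312 and 1251 TPM in A9. IFI6 supplied 6.46% to 8.89% of that sum in DMSO and 23.3% to 24.4% in A9, and without IFI6 and IFI27 the sum was 724 to 726 TPM in DMSO and 876 to 924 TPM in A9.

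IFI27, a small mitochondrial protein of the same family as IFI6, was at 7.89, 3.51 and 4.25 TPM in DMSO and 73.9, 69.8 and 83.3 TPM in A9. The group means were 5.22 ± 2.34 and 75.7 ± 6.92 TPM (SD, n = 3), a ratio of 14.5. Its log2 fold change of 3.68 (SE 0.26, adjusted p = 0.00207) was the highest of the 42. Its abundant transcripts were both higher in A9: ENST00000618200 was at 2.90, 2.73 and 1.90 TPM in DMSO and 36.0, 36.2 and 33.1 TPM in A9, and ENST00000621160 was at 3.58, 0 and 1.18 TPM and then 26.2, 20.2 and 39.8 TPM. In MOLM-13 the gene stayed at 0.02 to 0.30 TPM in all 6 samples.

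IFI6 was at 71.6, 50.4 and 50.3 TPM in DMSO and 320, 318 and 291 TPM in A9, a log2 fold change of 2.43 (SE 0.15, adjusted p = 0.00144). It was the most abundant ISG in each A9 sample, while BST2 was in each DMSO sample. All 3 of its transcripts were higher in every A9 sample, with the main one, ENST00000361157, at 60.5, 42.6 and 42.1 TPM and then 274, 274 and 252 TPM. IFI6 and IFI27 passed in all 6 fits that left out a sample, with the highest adjusted p at 0.0197 and 0.0249.

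IFITM3 was at 62.6, 53.1 and 55.4 TPM in DMSO and 118, 106 and 110 TPM in A9 (log2 fold change 0.96, SE 0.09, adjusted p = 0.00588), and it did not pass under median-ratio scaling (0.77, adjusted p = 0.0705). Its neighbours in the family did not pass: IFITM1 was at 30.7, 26.9 and 27.0 TPM and then 29.4, 27.1 and 25.9 TPM, and IFITM2 was at 11, 10.1 and 10.9 TPM and then 10.9, 9.02 and 6.34 TPM. BST2, at 293, 221 and 219 TPM in DMSO and 214, 224 and 219 TPM in A9, had overlapping groups. Of the 3 family members, IFITM3 was the one whose A9 samples all lay above its DMSO samples in this line. Of all genes tested there, 27.2% had that pattern.

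OAS3, an oligoadenylate synthetase, was at 0.39, 0.87 and 1.25 TPM in DMSO and 3.69, 3.97 and 3.74 TPM in A9. Its log2 fold change was 1.41 (SE 0.19, adjusted p = 0.017). IFI44L, a cytoplasmic ISG product, was at 1.11, 2.04 and 1.32 TPM and then 5.32, 5.18 and 4.50 TPM (1.28, SE 0.17, adjusted p = 0.0153). IFI35, a leucine-zipper protein, was at 32.6, 29.6 and 26.5 TPM and then 42.7, 44.2 and 42.6 TPM (0.53, SE 0.10, adjusted p = 0.0491). In all 3 genes every A9 sample was above every DMSO sample, as in 27.2% of all genes tested in this line. The 3 were picked for passing the test, so the lack of overlap is no further support. OAS3 averaged under 1 TPM in DMSO and entered the test through its A9 samples. IFI35 was close to the threshold and did not pass with a pseudocount of 0.1 (adjusted p = 0.0515), with no filter (0.0954) or under median-ratio scaling (0.298).

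IFI16 went from 35.8, 41.1 and 40.2 TPM in DMSO to 28.0, 26.3 and 23.3 TPM in A9 (log2 fold change -0.58, SE 0.11, adjusted p = 0.0481). Without DMSO sample 1, in which the retained-intron transcript was high, its fold change was -0.64 (adjusted p = 0.00113). It did not pass with a pseudocount of 0.1 (0.0509) or with no filter (0.0954). IFIT2 had the lowest fold change of the 42, -1.09 (SE 0.28, adjusted p = 0.108). It was at 1.36, 2.13 and 1.49 TPM in DMSO and listed at 0.00126, 0.000907 and 0.906 TPM in A9, so the A9 samples differed widely among themselves. Its reads were assigned to different transcripts in different samples: in DMSO sample 1, ENST00000371826 was listed at 0.000633 and ENST00000611722 at 1.18 TPM, while in DMSO samples 2 and 3 they were at 2.13 and 1.45 TPM and at 0. The IFIT2 values are therefore uncertain. GBP2 was at 16, 12.1 and 14.6 TPM in DMSO and 9.79, 10.7 and 9.08 TPM in A9 (-0.48, adjusted p = 0.136).

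**Figure D3:**
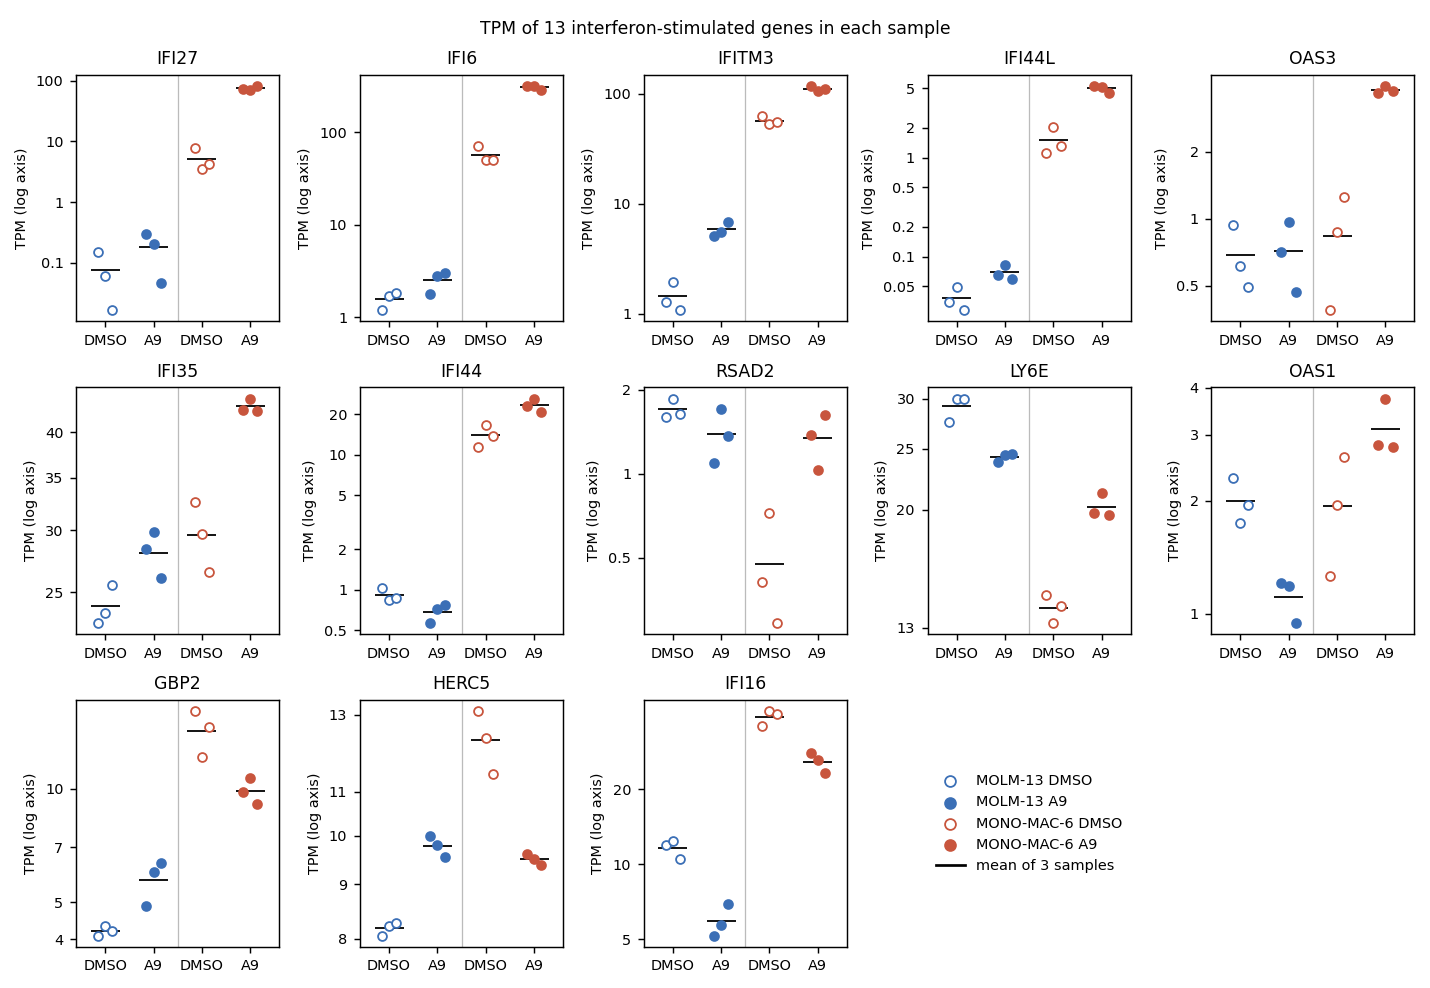
TPM of 13 ISGs in each sample on log axes, with open circles for DMSO, filled circles for A9 and a bar at the mean of 3 samples (blue MOLM-13, red MONO-MAC-6). IFI27 and IFI6 in MONO-MAC-6 show the widest gaps between DMSO and A9, and LY6E, OAS1, IFI44, GBP2 and HERC5 lie on opposite sides of DMSO in the lines.

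The 42 genes leaned upward in MONO-MAC-6. The median log2 fold change was 0.49, against 0.16 for all genes, and 33 of 42 were above 0, against 70.5% of all genes. Under median-ratio scaling the medians were 0.32 and -0.01, and 29 were above 0, with IRF9, IFIT3, PARP9 and SP110 turning sign. IFITM3 and IFI35 then did not pass and XAF1 did, which left 6 calls. That scaling also moved the share of all calls that were higher from 74.6% to 58.1%. Relative to the median of all genes, the 7 genes that passed were at 3.52 (IFI27), 2.27 (IFI6), 1.25 (OAS3), 1.12 (IFI44L), 0.80 (IFITM3), 0.37 (IFI35) and -0.74 (IFI16). In 24 genes every A9 sample was above every DMSO sample, against 27.2% of all genes, and in 4 (GBP2, HERC5, IFI16, IFIT2) every A9 sample was below, against 10.7%.

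By role, all 4 oligoadenylate synthetase genes had positive values (0.27 to 1.41) and 1 passed. The nucleotide and RNA effectors RSAD2, CMPK2, ISG20, SAMD9 and SAMD9L were at 0.31 to 0.67, and PARP9, DTX3L, PARP14 and TRIM22, which carry out ADP-ribosylation or ubiquitination, were at 0.15 to 0.80, with 0 of 5 and 0 of 4 passing. XAF1, a partner of the apoptosis inhibitor XIAP, had the highest value among genes that did not pass, at 1.16 (adjusted p = 0.0738, then 0.0243 under median-ratio scaling and 0.00841 with the length trend removed), from 14.4, 27.1 and 28.4 TPM to 50.7, 55.1 and 47.6 TPM. STAT2 was at 0.65 (adjusted p = 0.151) and ISG15, the ubiquitin-like modifier, at 0.52 (adjusted p = 0.186). IFIT1 was at -0.05 and IFIT3 at 0.03.

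Leaving out DMSO sample 1 raised the number of ISGs past the test from 7 to 24 of 42, while the share of all genes past it went to 24.8%. The 20 that were then higher were IFI35, DHX58, OAS2, OAS3, IFIH1, IFI6, TRIM22, XAF1, EPSTI1, RSAD2, IFI44, IFI44L, IFITM3, MX1, LY6E, IFI27, STAT2, PARP14, IRF7 and ISG15, and the 4 lower were IFIT2, HERC5, GBP2 and IFI16. The median log2 fold change was then 0.31, against 0.03 for all genes. Leaving out DMSO sample 2 gave 4 calls (IFI27, IFI6, IFI44L, IFITM3), and DMSO sample 3 also 4 (IFI27, IFI6, OAS3, IFITM3). Leaving out A9 sample 1 gave 3 (IFI27, IFI6, IFITM3), and A9 sample 2 or A9 sample 3 gave 2 each (IFI27, IFI6). IFI35 and IFI16 passed in 1 of these 6 fits, the one without DMSO sample 1, and reached an adjusted p of 0.274 and 0.247 in others. OAS3, IFI44L and IFITM3 reached 0.105, 0.104 and 0.0586.

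**Figure D4:**
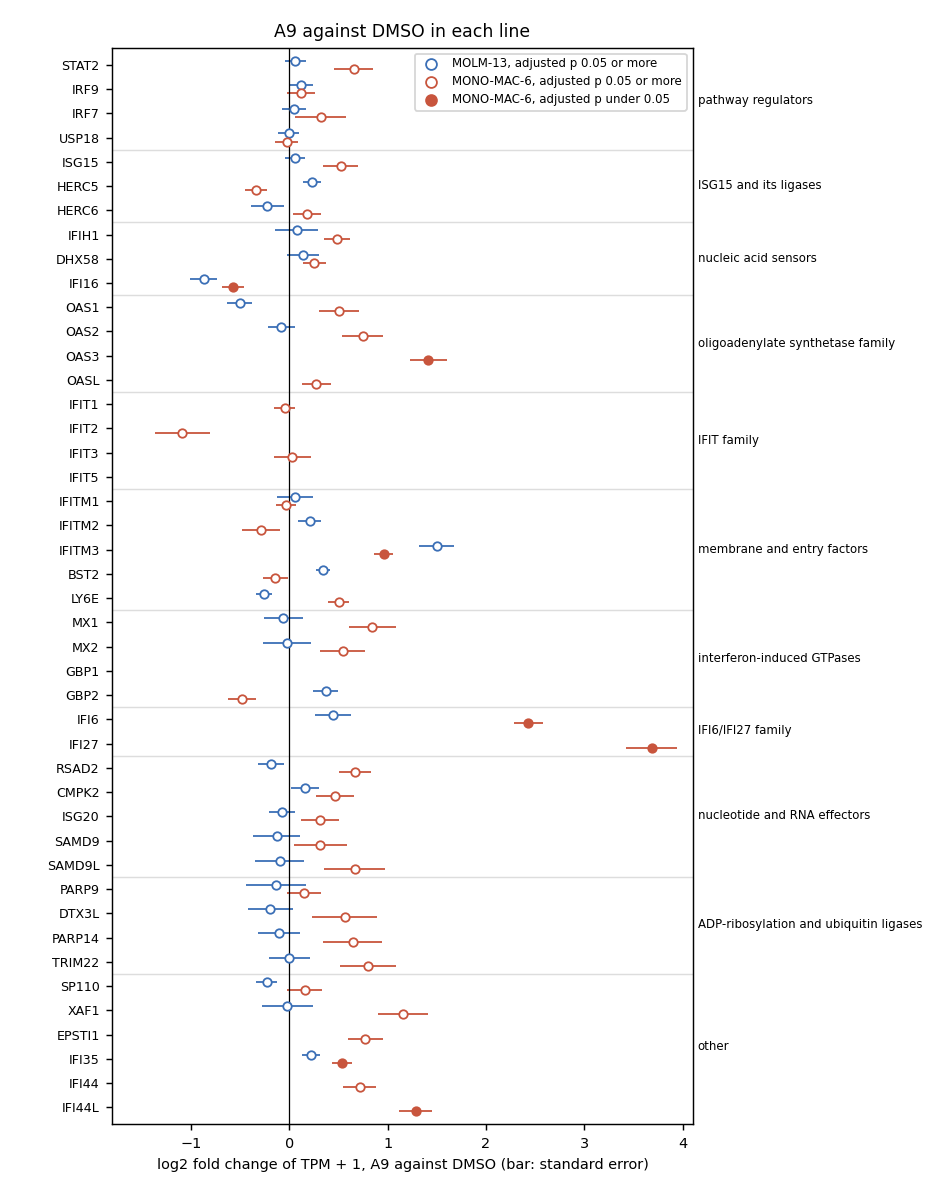
Log2 fold change of TPM + 1, A9 against DMSO, for each tested ISG in MOLM-13 (blue) and MONO-MAC-6 (red), grouped by role, with standard errors and filled points for an adjusted p under 0.05. The 7 filled points are all in MONO-MAC-6, and genes under the filter have no point.

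**Figure D5:**
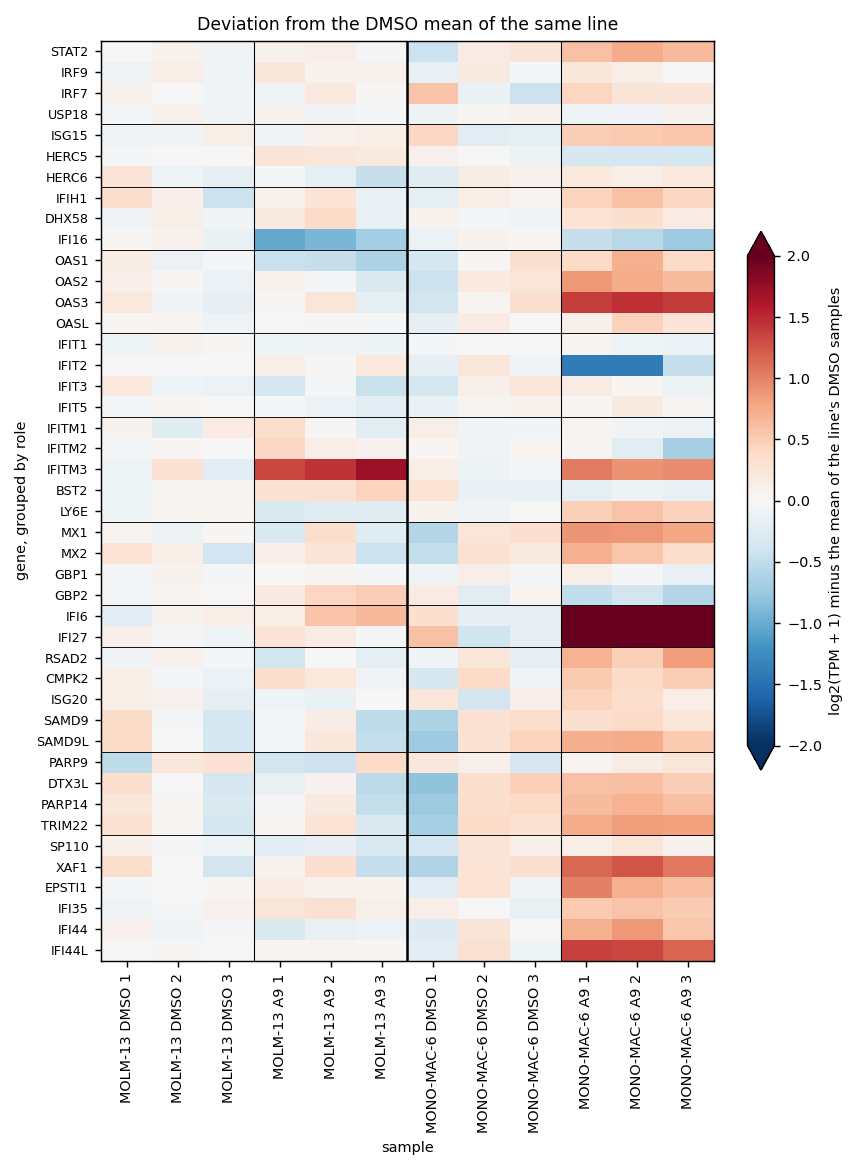
Log2(TPM + 1) of each ISG in each of the 12 samples, minus the mean of the DMSO samples of the same line; colours saturate beyond 2 in either direction. In MONO-MAC-6, DMSO sample 1 is below the other DMSO samples for many genes, such as DTX3L, PARP14 and SAMD9L, and all 3 A9 columns are red for IFI6 and IFI27.

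Between the lines, 6 of the 33 ISGs tested in both (18.2%) differed in their response to A9, 4 with a higher value in MONO-MAC-6 and 2 with a lower one, against 2.18% of all genes tested in both (1.25% higher and 0.932% lower). The test is the interaction term of a model over all 12 samples, and line and dose differ together in it. The 4 were IFI6 (difference of log2 fold changes 1.98), OAS1 (1.01), RSAD2 (0.86) and LY6E (0.76), and the 2 were GBP2 (-0.85) and HERC5 (-0.57). IFI27 (3.55), OAS3 (1.39), IFI44L (1.24) and IFI44 (0.90) also passed, which made 10 of the 42 genes that reached the filter in any group, against 2.99% of all genes (1.92% higher and 1.07% lower). These 4 were under 1 TPM on average in both groups of MOLM-13, where a change on this scale is small by construction, so no difference in response is read from them. For IFI44L the A9 mean was 1.83 times the DMSO mean in the first line and 3.35 times in the second. OAS1 and RSAD2 did not pass with a pseudocount of 0.1 (adjusted p = 0.0593 and 0.0632) or with no filter (0.0844 and 0.0798). The median difference of the 42 was 0.40, against 0.20 for all genes, and under median-ratio scaling it was 0.20, against -0.01. That scaling moved the share of all calls that were higher from 64.3% to 50.7% and left 8 ISGs past the test, with HERC5 (adjusted p = 0.0521), RSAD2 (0.0814) and LY6E (0.212) lost and IFIT2 gained.

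Of the 33 ISGs tested in both lines, 4 had A9 samples on opposite sides of all DMSO samples in the lines: LY6E, OAS1, GBP2 and HERC5. Over all genes tested in both lines the share was 1.77%. These 4 are among the 10 genes past the interaction, a selection that favours this pattern. IFI44, also among the 10, had the pattern too and was under the filter in MOLM-13. LY6E was below DMSO in every A9 sample of MOLM-13 and above it in MONO-MAC-6, where it was at 14.7, 13.3 and 14.1 TPM in DMSO and 19.8, 21.3 and 19.7 TPM in A9 (interaction adjusted p = 0.00362). OAS1 had the same pattern, with 1.26, 1.94 and 2.62 TPM in DMSO and 2.82, 3.75 and 2.78 TPM in A9 in MONO-MAC-6 (interaction adjusted p = 0.0498). GBP2 and HERC5, the main ligase for ISG15, had the opposite pattern. HERC5 was at 8.06, 8.23 and 8.28 TPM in DMSO and 9.99, 9.80 and 9.55 TPM in A9 in MOLM-13, and at 13.1, 12.4 and 11.4 TPM and then 9.61, 9.50 and 9.39 TPM in MONO-MAC-6 (interaction adjusted p = 0.0255; GBP2 0.0289). Within either line alone none of the 4 genes tested in both passed, and LY6E came closest, in MONO-MAC-6 (0.50, adjusted p = 0.0619).

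RSAD2 was at 1.60, 1.86 and 1.64 TPM in DMSO and 1.09, 1.70 and 1.37 TPM in A9 in MOLM-13. In MONO-MAC-6 it was at 0.41, 0.72 and 0.29 TPM and then 1.37, 1.03 and 1.63 TPM (interaction adjusted p = 0.0484). IFI44 was at 1.03, 0.84 and 0.87 TPM and then 0.57, 0.72 and 0.76 TPM in MOLM-13, and at 11.4, 16.8 and 13.9 TPM and then 23.3, 26.2 and 20.9 TPM in MONO-MAC-6 (interaction adjusted p = 0.0363). In MONO-MAC-6 both genes had all A9 samples above all DMSO samples, as in 27.2% of all genes tested in that line. In MOLM-13 the groups of RSAD2 overlapped and the A9 samples of IFI44 were all below DMSO, at levels under the filter.

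In the 12 fits that left out a sample, IFI27, IFI6, IFI44L and LY6E passed in all 12. OAS3 passed in 11 and was at 0.0507 without A9 sample 2 of MONO-MAC-6, the fit with the fewest calls, 4. HERC5 and GBP2 passed in 3 of the 12, with adjusted p up to 0.0853 and 0.0947, and OAS1, RSAD2 and IFI44 passed in 2, with up to 0.137, 0.135 and 0.11. Each of the 3 fits without a MOLM-13 DMSO sample gave 5 calls (IFI27, IFI6, IFI44L, LY6E, OAS3), as did the fit without A9 sample 1 of MONO-MAC-6. The fits without A9 sample 1, 2 or 3 of MOLM-13 gave 6 each, those 5 with GBP2, RSAD2 or HERC5. Those without DMSO sample 1, 2 or 3 of MONO-MAC-6 gave 10, 9 and 7, and the one without A9 sample 3 of MONO-MAC-6 gave 6.

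IFITM3 and IFI35 had all A9 samples above all DMSO samples in each line, against 3.13% of all genes tested in both, and IFI16 had all below, against 1.56%. EPSTI1 and IFI44L also had all above in each line, and were under the filter in MOLM-13. Of the 33 genes tested in both, 12 had the same sign. For IFITM3 the log2 fold change was 1.50 in the first line and 0.96 in the second, and the difference of -0.54 did not pass (adjusted p = 0.207). For IFI16 they were -0.87 and -0.58 (interaction adjusted p = 0.359), and for IFI35 0.22 and 0.53 (0.236).

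The interferon genes themselves were near 0. Of 22 ligand genes, 13 were listed at 0 in all 12 samples, and the highest value was 0.568 TPM, for IFNB1 in DMSO sample 1 of MONO-MAC-6. IFNB1 was at 0.136 and 0.153 TPM in the other DMSO samples of that line and at 0.053, 0.028 and 0.142 TPM in A9, and no ligand reached the filter. IFNAR1 and IFNAR2, the chains of the type I receptor, were at 0.79 to 1.64 and 18.4 to 24.7 TPM in DMSO and at 1.77 to 2.28 and 25.1 to 27.2 TPM in A9 in MONO-MAC-6, and neither passed.

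Of 15 sensors and adaptors of interferon induction, 11 were tested in each line, and none passed in MOLM-13. In MONO-MAC-6, 1 of the 11 passed, against 3.36% of all genes tested. This was TLR9, a receptor for DNA in endosomes, which fell from 1.46, 1.80 and 1.66 TPM to 0.83, 0.57 and 0.61 TPM (log2 fold change -0.66, adjusted p = 0.0396). TLR9 averaged 0.67 TPM in A9 and entered the test through its DMSO samples. Of 7 other interferon regulatory factor genes and 10 negative regulators, none passed in either line. SOCS1, an inhibitor of the JAK kinases, was at 19.5, 22 and 23.5 TPM in DMSO and 14.5, 8.45 and 10.1 TPM in A9 in MONO-MAC-6 (-0.95, adjusted p = 0.0655). Of 16 targets known for interferon-gamma, 13 were tested in MONO-MAC-6 and 1 passed, against 3.36% of all genes tested. This was SECTM1, a secreted and membrane protein of myeloid cells, which rose from 0.25, 0.39 and 0.29 TPM to 1.48, 1.96 and 1.90 TPM (1.08, adjusted p = 0.00923). SECTM1 averaged 0.31 TPM in DMSO and entered the test through its A9 samples. CXCL10, a chemokine of that list, was at 7.83, 7.94 and 8.32 TPM in DMSO and 4.75, 4.79 and 5.66 TPM in A9 (-0.58, adjusted p = 0.0624).

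Of 12 myeloid markers, 11 were tested in MONO-MAC-6 and 5 rose (LYZ, CD14, TYROBP, CD68 and SPI1), against 2.51% of all genes tested. The other 6 did not pass, among them MPO (means of 51.9 TPM in DMSO and 37.7 TPM in A9), FCER1G (48.4 and 47.7 TPM) and ITGAM (2.98 and 3.01 TPM). Their list summed to 3854 to 4391 TPM in DMSO and 8628 to 8957 TPM in A9, of which LYZ, lysozyme, was the larger part. In MOLM-13 the list summed to 752 to 791 and 988 to 1112 TPM. Of the 10 markers tested there, LYZ alone passed and rose (log2 fold change 1.29, adjusted p = 0.00517), against 0.121% of all genes passing. The part of these markers in the ISG values was not tested. The 6 T cell genes summed to at most 4.47 TPM in any group, with CD3E and CD2 at 0 in all samples, and the 6 B cell genes to at most 11.1 TPM, with MS4A1 at 0. Erythroid genes summed to at most 28.6 TPM, with HBB at 0, and most of it was EPOR. Among 6 NK cell genes, NKG7 was at 39.9 to 64.0 TPM in MOLM-13 and 87.8 to 112 TPM in MONO-MAC-6. NCAM1 was at 18.6 to 53.2 TPM in MOLM-13 and 0.20 to 0.63 TPM in MONO-MAC-6. Of 6 genes of plasmacytoid dendritic cells, a cell known for making interferon, the sums were 22.4 to 37.7 TPM in DMSO and 24.3 to 27.3 TPM in A9 in MONO-MAC-6. CLEC4C, LILRA4 and GZMB of that list were at most 0.27, 0.44 and 0.41 TPM in any sample of either line. Most of the sums in MONO-MAC-6 came from TCF4 (means of 19.3 TPM in DMSO and 18.7 TPM in A9) and SPIB (10.1 and 4.80 TPM). SPIB fell there (-0.94, adjusted p = 0.0242), 1 of 3 genes of the list tested, against 0.855% of all genes lower. In MOLM-13, 3 genes of the list were tested and 0 passed. SPIB was at 5.13, 5.07 and 5.98 TPM in DMSO and 2.06, 2.87 and 2.40 TPM in A9 in MOLM-13. IL3RA, also of that list, was at 19.9 to 25.7 TPM in MOLM-13 and 2.06 to 2.72 TPM in MONO-MAC-6.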

How the data were processed

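The authors deposited transcript TPM, made with kallisto on GRCh38, with limma also listed, per the submitters' processing notes, which name no role or version. Poly(A) RNA was sequenced with paired reads, per the labels. Of 207175 transcripts, 162526 matched GENCODE 29 and were summed to genes, and 44649 did not, so some transcripts of the ISGs may be missing. TPM of libraries sharing a first label number were averaged, transformed to log2(TPM + 1) and, for genes averaging 1 TPM or more in either group, tested with limma 3.58.1 (R 4.3.3, eBayes with trend and robust) over all genes, with a two-sided Benjamini-Hochberg threshold of 0.05. An exact permutation test of 3 against 3 cannot go below 0.1. The script was tested on simulated data. Fold changes understate those of low genes. The rule gave per-sample values to ISGs past a test within a line or between lines, to the 3 highest and 3 lowest per line, and to the 5 highest and 5 lowest between the untreated lines; XAF1, SOCS1, CXCL10, IFITM1, IFITM2 and BST2 were added after their values were seen. The genes and lists were chosen with earlier results of these data known. The count over the receptor and kinase list is not reported here.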

Additional observations from a re-analysis of the deposited data

Results flagged for a closer look

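For 6 ISGs tested in both lines the interaction term of limma passed on the log2(TPM + 1) scale, with line and dose differing together. The difference of log2 fold changes, MONO-MAC-6 minus MOLM-13, was 1.98 for IFI6, 1.01 for OAS1, 0.86 for RSAD2 and 0.76 for LY6E. It was -0.85 for GBP2 and -0.57 for HERC5. Of these genes, IFI6 kept its call under every alternative run. LY6E, RSAD2 and HERC5 lost theirs under median-ratio scaling, and OAS1 and RSAD2 lost theirs with a pseudocount of 0.1. OAS1, RSAD2, GBP2 and HERC5 each lost the call in most fits that left out a sample. In GBP2, HERC5, LY6E and OAS1 the A9 samples lay on opposite sides of all DMSO samples in the lines, as did those of IFI44, which was under the filter in MOLM-13.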

How the results depend on the processing

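Every gene given with its value in each sample by the rule kept its direction under every alternative run (6 in MOLM-13, 9 in MONO-MAC-6, 10 in the interaction and 10 between the untreated lines). Over these named genes and the alternatives, 368 values kept direction and side of the threshold, 98 lost the threshold and 14 gained it. Most of these genes were named because they had passed, so few of them could gain it. The other ISGs are not in these 3 numbers. The counts moved more. In MOLM-13, 14 genes passed; this was 4 with no filter, 46 under median-ratio scaling, 177 with the length trend removed (chosen after seeing the data) and 2 to 8 leaving out each sample. The ISGs past the test there were 0, and 1 (IFITM3) under scaling and with the length trend removed, and 0 to 0 leaving out each sample. In MONO-MAC-6, 433 genes passed; this was 254 with no filter, 1195 with the length trend removed and 59 to 3204 leaving out each sample. The ISGs past the test were 7, then 14 with the length trend removed and 2 to 24 leaving out each sample. In the interaction, 401 genes passed, then 743 with the length trend removed and 197 to 548 leaving out each sample, with 10 ISGs and 4 to 10. Between the untreated lines the ranges were 4642 to 8061 genes and 25 to 35 ISGs. When libraries were averaged by the second number, which sets libraries of 3 first numbers together in each sample, the genes past the test were 5440, 8703, 8505 and 11052, and the ISGs 12, 36 and 33 in the A9 comparisons and the interaction. With a replicate block, the genes were 87, 94, 207 and 4106 and the ISGs 1 (IFITM3), 3 (IFI27, IFI6, IFITM3) and 5 (IFI27, IFI6, IFI44L, LY6E, OAS3). The same-numbered samples deviated with a correlation of 0.361, -0.077 and 0.676 in MOLM-13 and -0.027, 0.088 and -0.091 in MONO-MAC-6. Samples with different numbers had values from -0.683 to 0.631 in MOLM-13. The same-numbered values were thus near 0 in MONO-MAC-6, and whether the numbers pair samples in MOLM-13 is not settled. The cause of these moves was not tested. TPM hold no counts, so the depth limit of the low genes is unknown.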
